A study of Mus musculus with 11 samples.

Results

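The nucleotide receptors and ectonucleotidases are cell-surface proteins that sense or degrade ATP, UDP-sugars and adenosine outside the cell. The list held 10 genes, namely P2ry1, P2ry2, P2ry14, P2rx1, P2rx4, P2rx7, Adora1, Adora2b, Entpd1 and Nt5e. A gene was measured where a probe set carried its symbol and no other, and 8 of the 10 were measured, among 19938 genes in all. Adora1 and Adora2b were not analysed here, so nothing below concerns an adenosine receptor. Each of the 8 genes had 1 probe set. The genes were chosen by their expression in these same arrays, with the values of caerulein against NaCl known. Their differences are therefore given as a description with standard errors (SE) and without p-values.

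The pancreas of wild-type C57Bl6J mice was profiled, with 1 microarray per sample, 6 samples from mice given caerulein and 5 from mice given sodium chloride (NaCl). Caerulein, a cholecystokinin analogue that overstimulates acinar cells and causes acute pancreatitis, was given as 9 hourly injections into the peritoneum at a stated dose of 50 mg/kg, a unit not checked here. The series text counts 4 control mice and the sample titles name 5. The sources used here give no age, no sex and no time from the last injection to tissue collection. Values are log2 expression as deposited, so a difference of 1 is a 2-fold change. Acinar markers such as Cpa1, Cela1 and Ctrb1 were bright, and the mean log2 expression of the 12 measured markers lay between 13.90 and 13.97 on the NaCl arrays and between 13.60 and 13.67 on the caerulein arrays. The named 3 moved little (-0.039, -0.068 and 0.025) at a level near the top of the scale, and their groups overlapped. Of the 12 markers, 9 were lower on every caerulein array, against 15.6% of all probe sets, among them Sycn (-0.31) and Pla2g1b (-0.29). The median difference of the 12 was -0.11, the same as the median of all probe sets (-0.11). Bhlha15, the acinar transcription factor Mist1, fell most, from a mean of 9.65 to 7.65 (4-fold lower, limma adjusted p = 3.9e-08). Its fall is part of the change in the mean of the 12 markers. Whether the fall of Bhlha15 is linked to the differences of P2ry14, Entpd1 and P2rx1 given below was not tested. Pairs of arrays correlated at 0.981 to 0.991 inside a group and at 0.938 to 0.955 across the groups. Whole pancreas was used, so fewer cells of a type and less RNA per cell cannot be told apart.

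Extracellular nucleotides act through several protein families. P2X receptors are cation channels that ATP opens, and P2Y receptors are G protein-coupled receptors for ATP, ADP, UTP or UDP-sugars. The surface enzyme encoded by Entpd1 (CD39) removes phosphates from ATP and ADP to give AMP, and that encoded by Nt5e (CD73) turns AMP into adenosine, the ligand of a further group of receptors. In the exocrine pancreas, ATP is stored in zymogen granules and released with the digestive enzymes, and duct cells answer luminal ATP with secretion.

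The promoters of the 2 genes with the largest falls and of the only gene that was higher without overlap are shown because these 3 genes lay furthest from NaCl. The sequences are RefSeq windows of assembly GRCm38.p6, from 250 bases before to 50 bases after an annotated start, printed 5′ to 3′ along the gene's strand. Capitals mark matches on either strand to 3 motifs. They are TGANTCA, a loose form of the AP-1 motif with any middle base, TGACGTCA, the cAMP response element, and CAGCTG, a form of the E-box. P2ry14 has 4 annotated starts, of which the windows with a match are shown, at chr3:59153443-59153742 and chr3:59131279-59131578, both on the minus strand. Of the 2 Entpd1 windows the first, which holds a match, is shown, at chr19:40612116-40612415 on the plus strand. The second held none of the 3 motifs. The P2rx4 window is at chr5:122707294-122707593 on the plus strand.
P2ry14, first start: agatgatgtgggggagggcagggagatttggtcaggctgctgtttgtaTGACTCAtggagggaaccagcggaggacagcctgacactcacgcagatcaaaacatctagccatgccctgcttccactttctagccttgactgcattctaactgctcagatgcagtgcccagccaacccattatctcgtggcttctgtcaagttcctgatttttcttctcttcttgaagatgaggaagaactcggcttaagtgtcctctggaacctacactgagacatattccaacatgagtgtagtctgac
P2ry14, second start: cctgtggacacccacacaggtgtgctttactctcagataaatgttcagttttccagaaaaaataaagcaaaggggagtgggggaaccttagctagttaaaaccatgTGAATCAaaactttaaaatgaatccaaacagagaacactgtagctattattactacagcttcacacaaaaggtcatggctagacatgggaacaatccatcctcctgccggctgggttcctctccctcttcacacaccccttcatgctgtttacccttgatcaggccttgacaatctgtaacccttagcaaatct
Entpd1, first start: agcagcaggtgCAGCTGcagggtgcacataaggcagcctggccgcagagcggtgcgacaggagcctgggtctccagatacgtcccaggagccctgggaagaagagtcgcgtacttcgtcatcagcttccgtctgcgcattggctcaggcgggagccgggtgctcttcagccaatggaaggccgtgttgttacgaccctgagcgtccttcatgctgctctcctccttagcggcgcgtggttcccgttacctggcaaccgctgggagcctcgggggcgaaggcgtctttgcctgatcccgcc
P2rx4: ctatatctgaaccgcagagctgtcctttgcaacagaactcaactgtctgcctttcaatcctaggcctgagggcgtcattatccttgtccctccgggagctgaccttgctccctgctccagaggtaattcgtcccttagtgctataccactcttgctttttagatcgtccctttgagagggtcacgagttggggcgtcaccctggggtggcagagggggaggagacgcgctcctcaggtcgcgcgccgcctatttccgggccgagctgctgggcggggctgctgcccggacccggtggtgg

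The TGANTCA match read TGACTCA 202 bases before the first P2ry14 start and TGAATCA 144 bases before the second. The E-box began 239 bases before the first Entpd1 start. None of the 3 motifs was in the P2rx4 window. Over all 14 windows of the 8 genes, some of which overlap, 3 held TGANTCA (2 of P2ry14 and 1 of P2rx7). The E-box was in 1 window and the cAMP response element in 0, and no match overlapped another. Of all 32851 windows of this length, 7.81% held TGANTCA, 16.3% CAGCTG and 1.79% TGACGTCA. A match is a description of letters. Which start the pancreas uses was not measured.

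Of the 8 genes, P2ry14, Entpd1 and P2rx1 were lower on every caerulein array than on any NaCl array, P2rx4 was higher on every one, and the groups overlapped for P2ry1, P2ry2, P2rx7 and Nt5e. Over all 35556 probe sets, every caerulein array was lower in 15.6% and higher in 12.7%. Since the 8 genes were chosen on this contrast, nothing is read from their counts of 3 and 1. The median difference of the 8 genes was -0.11, the same as the median of all probe sets (-0.11). The single differences ran from -2.73 to 0.95.

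**Figure D1:**
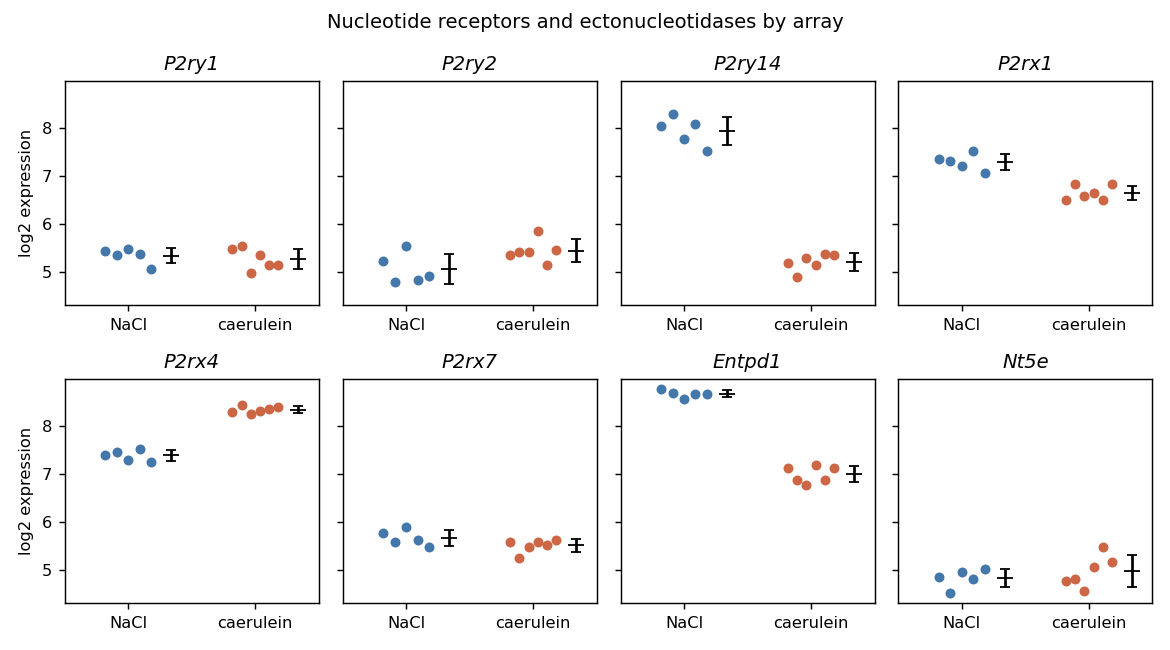
Log2 expression of the 8 measured genes (y axis) on each of the 5 NaCl arrays (blue) and 6 caerulein arrays (orange), in order of replicate number from left to right. Black bars are the mean ± SD of each group. P2ry14, Entpd1 and P2rx1 lie lower on every caerulein array, P2rx4 lies higher, and the other 4 genes overlap.

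P2ry14 encodes the receptor for UDP-glucose and other UDP-sugars, which couples to inhibitory G proteins. Its log2 expression on the NaCl arrays, replicates 1 to 5, was 8.05, 8.29, 7.78, 8.09 and 7.53. On the caerulein arrays, replicates 1 to 6, it was 5.20, 4.90, 5.29, 5.15, 5.39 and 5.36. All caerulein arrays were low and closely spaced, and a gap of 2.14 separated the highest of them from the lowest NaCl array. The means were 7.95 ± 0.30 (SD, n = 5) and 5.21 ± 0.18 (SD, n = 6), a difference of -2.73 (SE 0.13), or 6.65-fold lower. This gap was larger than the whole range within either group (0.77 in NaCl and 0.49 in caerulein). The caerulein mean of P2ry14 lay near the median of all probe sets on those arrays (5.20 to 5.25), and whether such a level is above background is unknown without detection calls.

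P2ry2, a receptor for ATP and UTP that raises cytosolic calcium through Gq proteins, was measured at 5.24, 4.80, 5.55, 4.85 and 4.92 on the NaCl arrays. On the caerulein arrays it was 5.37, 5.43, 5.42, 5.87, 5.15 and 5.47. The caerulein mean was higher by 0.38 (SE 0.15), but 5 of the 6 caerulein arrays lay within the NaCl range and 1 above it. NaCl replicate 3 was the high array of its group, and without it the difference was 0.50. P2ry1, the Gq-coupled receptor for ADP, was 5.45, 5.36, 5.48, 5.39 and 5.07 on the NaCl arrays and 5.48, 5.54, 4.99, 5.36, 5.15 and 5.15 on the caerulein arrays. Of the caerulein arrays 1 lay above and 1 below the NaCl range, and the difference of -0.069 (SE 0.11) was smaller than its error.

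P2rx4 encodes a calcium-permeable ATP-gated channel found at the surface and in endolysosomes. It was 7.40, 7.45, 7.30, 7.53 and 7.25 on the NaCl arrays and 8.29, 8.43, 8.24, 8.32, 8.35 and 8.39 on the caerulein arrays. Both groups were tight and a gap of 0.71 lay between them. The difference was 0.95 (SE 0.067), or 1.93-fold higher. P2rx4 had the lowest SD of the 8 genes among the caerulein arrays (0.071, n = 6).

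P2rx1, a fast-desensitising ATP-gated channel known from platelets and smooth muscle, moved the other way. It was 7.37, 7.32, 7.22, 7.52 and 7.06 on the NaCl arrays and 6.51, 6.84, 6.59, 6.65, 6.51 and 6.83 on the caerulein arrays. The groups were separated by 0.22, with NaCl replicate 5 the nearest to the caerulein arrays, and the difference was -0.64 (SE 0.094), or 1.56-fold lower. P2rx7, the ATP-gated channel that can activate the NLRP3 inflammasome in myeloid cells, was 5.78, 5.58, 5.90, 5.63 and 5.48 on the NaCl arrays and 5.59, 5.26, 5.49, 5.59, 5.53 and 5.63 on the caerulein arrays. The difference of -0.16 (SE 0.091) came with overlapping groups, and only caerulein replicate 2 lay below every NaCl array. P2rx4 and P2rx7 are neighbours on the chromosome in the RefSeq gene table, yet as deposited the groups were separated for the first and overlapped for the second. Whether their differences differ was not tested.

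Entpd1, the enzyme that breaks ATP and ADP down to AMP, was 8.77, 8.68, 8.57, 8.67 and 8.67 on the NaCl arrays. On the caerulein arrays it was 7.13, 6.88, 6.78, 7.19, 6.88 and 7.12. The gap of 1.38 was larger than the range within either group (0.20 in NaCl and 0.41 in caerulein). The difference was -1.67 (SE 0.084), or 3.19-fold lower. Nt5e, which acts on the AMP that Entpd1 makes, was 4.85, 4.53, 4.97, 4.82 and 5.02 on the NaCl arrays and 4.77, 4.81, 4.57, 5.07, 5.49 and 5.16 on the caerulein arrays. Of the caerulein arrays, 3 lay above the NaCl range and none below it, and the difference was 0.14 (SE 0.15). Nt5e had the widest spread of the 8 genes in caerulein (SD 0.33, n = 6), against a median SD of 0.14 over all probe sets.

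The 4 genes without overlap kept their direction under the 4 other scalings of the arrays that were run. Under these P2ry14 lay between -3.51 and -2.70, Entpd1 between -2.45 and -1.73, P2rx1 between -1.42 and -0.70, and P2rx4 between 0.17 and 0.89, each without overlap of the groups. The lowest of these came with an equal mean of 12 commonly used scaling genes such as Actb and Gapdh. That scaling, called the scaling-gene setting, moved the median of all probe sets from -0.11 to -0.88, and P2rx4 was then 1.06 above that median. For the other 4 genes the sign depended on the scaling, as deposited or altered. P2ry1 ran from -0.85 to 0.13, P2rx7 from -0.94 to 0.019, P2ry2 from -0.40 to 0.58 and Nt5e from -0.64 to 0.33.

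**Figure D2:**
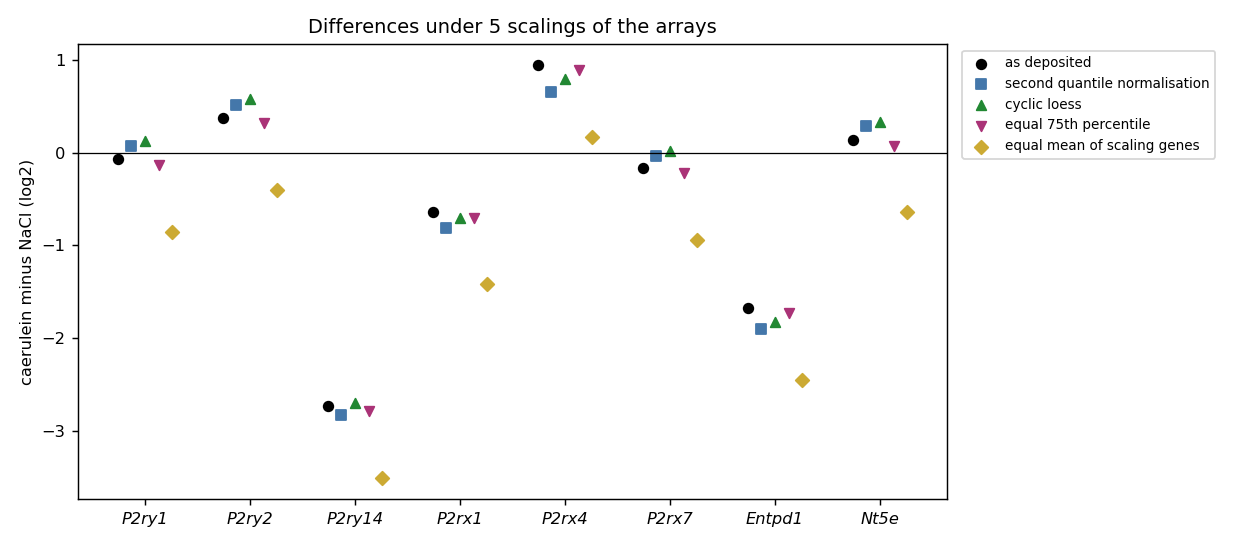
Difference between the caerulein and NaCl means (log2, y axis) of the 8 genes (x axis) with the arrays as deposited (black circles) and under 4 other scalings of the arrays. P2ry14, Entpd1 and P2rx1 stay below 0 and P2rx4 above 0 under all 5, while P2ry1, P2ry2, P2rx7 and Nt5e cross 0.

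The genes with profiles most like those of P2ry14 and P2rx4 were sought among 18709 others. Likeness was the root mean square difference of the 11 log2 values after each gene's NaCl mean had been subtracted. For P2ry14 the 3 nearest were Aass, a lysine-degrading enzyme (0.191), Sephs2, an enzyme of selenocysteine synthesis (0.26), and Sel1l, a part of the machinery that degrades misfolded endoplasmic reticulum proteins (0.268). Their differences were -2.73, -2.51 and -2.58. For P2rx4 the 3 nearest were the translation initiation factor gene Eif3a (0.0801), the phosphatase gene Ppm1a (0.0812) and Ice1 (0.0826), with differences of 1.03, 1.03 and 0.89, which were 0.25, 0.25 and 0.12 under the scaling-gene setting, beside 0.17 for P2rx4. A small distance here mostly reflects a similar difference between the groups.

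Other genes of the pathway were read from lists with 101 measured genes. Like the receptors and ectonucleotidases above, the lists were chosen with earlier results of these data known. Their shares and p-values are therefore a description and no independent evidence. They come from a fit over all probe sets (limma, Benjamini-Hochberg adjusted p under 0.05). In that fit 16.4% of all 35556 probe sets were higher in caerulein and 27.8% were lower, and each list is to be read against these shares. They hold for the arrays as deposited only. Under the scaling-gene setting 32673 of all probe sets were called and 95.1% of those were lower. Most genes of any kind were thus called lower there, and list counts given for that setting are to be read against this. Of the 11 other P2Y and P2X receptors and relatives that were measured, 0 were higher and 1 was lower (9.09%), with differences that ran from -0.21 to 0.064. The 1 was P2rx2, a channel known from neurons, with a difference of -0.21 (SE 0.075, limma adjusted p = 0.0373), and this call was lost when the arrays were quantile normalised again (adjusted p = 0.599), by cyclic loess (0.923) and with the replicate number as a block (0.112), a fit that leaves out caerulein replicate 6. It was also lost without NaCl replicate 2, 4 or 5 or without caerulein replicate 1, 2, 4, 5 or 6 (adjusted p from 0.0507 to 0.0916), and without NaCl replicate 1 or 3 the list held 2 lower genes. All 11 were lower once the scaling genes were set to an equal mean. P2ry12 and P2ry13, ADP receptors known from platelets, microglia and other cells, had differences of -0.12 and -0.16 and did not pass as deposited.

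Of 12 other enzymes that break down nucleotides outside the cell or in the secretory pathway, 5 were lower and 0 higher, or 41.7% lower. Cyclic loess gave 3 lower and 1 higher, equal 75th percentiles 9 lower, and the scaling-gene setting 12 lower. Entpd5, an endoplasmic reticulum enzyme that hydrolyses UDP, was 1.46-fold lower (-0.55, SE 0.089, limma adjusted p = 3.1e-04). Entpd2, a surface enzyme that prefers ATP, fell 1.4-fold (-0.48, SE 0.07, limma adjusted p = 1.2e-04). Enpp3, an ectonucleotide pyrophosphatase, had a difference of -0.31 (limma adjusted p = 0.0197), a call lost when the arrays were quantile normalised again (adjusted p = 0.109), by cyclic loess (0.152) and under the replicate block (0.0725). Without caerulein replicate 6 the list held 8 lower genes and 1 higher gene, and without NaCl replicate 1 or 4 it also held 1 higher gene.

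**Figure D3:**
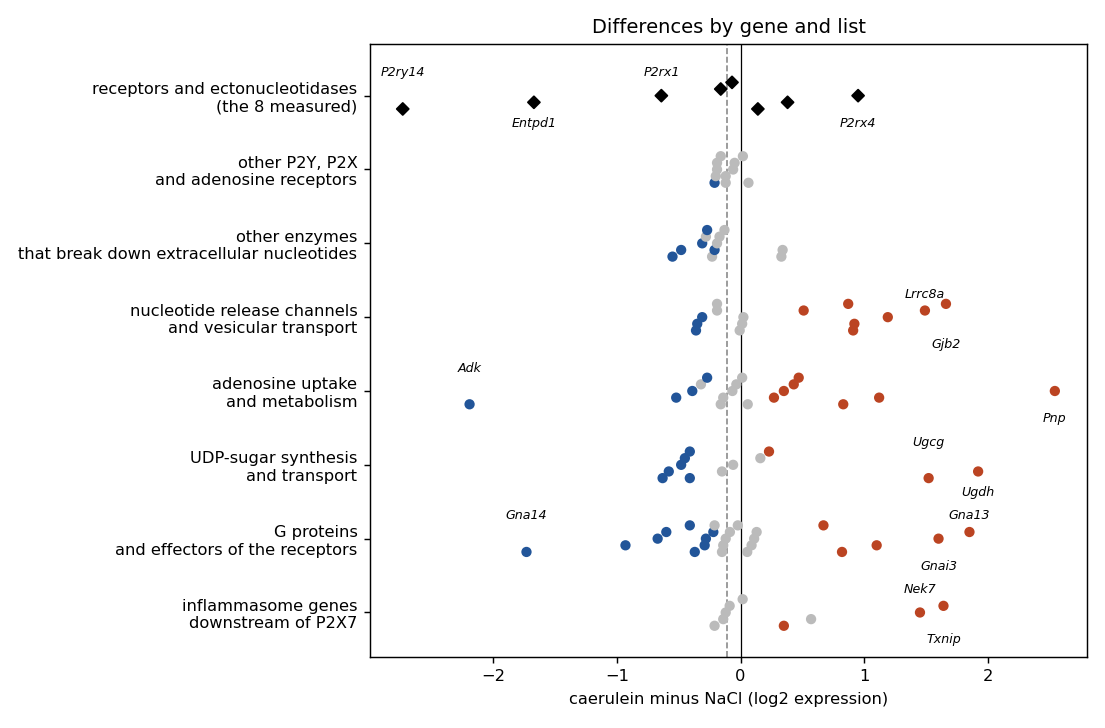
Difference between the caerulein and NaCl means (log2, x axis) for each measured gene of the lists (rows), with the 8 receptors and ectonucleotidases as black diamonds and no call shown for them. In the other rows red points passed limma's test as higher, blue as lower and grey did not pass; the dashed line is the median of all probe sets (-0.11). The remaining receptors lie close to that line, while Pnp and Adk are at the 2 ends of the adenosine row.

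Of 15 genes for the release of nucleotides from cells, 7 were higher (46.7%) and 3 lower (20%), but 3 and 8 once the scaling genes were set to an equal mean. The rises included 4 of the 5 subunits of the volume-regulated anion channel. Lrrc8a, its obligatory subunit, rose 2.81-fold (1.49, SE 0.075, limma adjusted p = 8.4e-09) and Lrrc8b 2.29-fold (1.19, SE 0.10, limma adjusted p = 9.6e-07). Lrrc8c and Lrrc8e rose 1.88-fold and 1.89-fold (limma adjusted p = 5.4e-04 and 2.7e-06), and Lrrc8d, at 0.023, did not pass (limma adjusted p = 0.871). Under the scaling-gene setting the calls of Lrrc8c (0.13, adjusted p = 0.442) and Lrrc8e (0.14, adjusted p = 0.259) were lost and Lrrc8d passed as lower (-0.75, adjusted p = 1.7e-05). Gjb2, which encodes connexin 26 of gap junctions and hemichannels, rose 3.15-fold (1.66, SE 0.20, limma adjusted p = 2.3e-05). Calhm1, an ATP-release channel of taste cells, had a difference of -0.36 (limma adjusted p = 0.0197), a call lost by cyclic loess (adjusted p = 0.259), with a repeated quantile normalisation (0.159) and without NaCl replicate 4 (0.0502). Panx1, the main ATP-release pannexin, had a difference of -0.0071 and Slc17a9, the vesicular nucleotide transporter, one of -0.19, and neither passed (limma adjusted p = 0.954 and 0.187), though both were lower under the scaling-gene setting (-0.78 and -0.96).

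In the list of adenosine uptake and metabolism, 7 of 18 genes were higher (38.9%) and 4 lower (22.2%), or 2 and 15 once the scaling genes were set to an equal mean. The list held the largest fall (Adk) and the largest rise (Pnp) among the 101 genes. Adk, the kinase that turns adenosine back into AMP, averaged 9.26 ± 0.12 on the NaCl arrays (SD, n = 5) and 7.07 ± 0.083 on the caerulein arrays (SD, n = 6), which is 4.57-fold lower (limma adjusted p = 1.9e-10). Pnp, the phosphorylase that splits inosine and guanosine, averaged 6.22 ± 0.35 on the NaCl arrays (SD, n = 5) and 8.75 ± 0.32 on the caerulein arrays (SD, n = 6), which is 5.8-fold higher (limma adjusted p = 1.7e-07). Nt5c3, a cytosolic pyrimidine nucleotidase, rose 2.17-fold (1.12, SE 0.09, limma adjusted p = 5.7e-07). Ada, the deaminase that turns adenosine into inosine, had a difference of 0.058 and did not pass (limma adjusted p = 0.525). It passed as higher by cyclic loess (0.26, adjusted p = 0.00835) and with a repeated quantile normalisation (0.21, adjusted p = 0.0238), and as lower under the scaling-gene setting (-0.72).

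UDP-sugars are the ligands of the P2ry14 receptor. Of 12 genes that make, carry or use them, with a related transporter among them, 6 were lower (50%) and 3 higher (25%), but 10 and 2 once the scaling genes were set to an equal mean. Ugdh, which oxidises UDP-glucose to UDP-glucuronate, rose 3.79-fold (1.92, SE 0.14, limma adjusted p = 2.5e-07). Ugcg, which uses UDP-glucose to make glucosylceramide, rose 2.86-fold (1.52, SE 0.085, limma adjusted p = 2.1e-08). Slc35b1, a nucleotide transporter of the endoplasmic reticulum, fell 1.55-fold (-0.63, SE 0.091, limma adjusted p = 1.1e-04). Ugp2, which makes UDP-glucose, had a difference of 0.23 (limma adjusted p = 0.0423), which was -0.54 under the scaling-gene setting. The Ugp2 call was lost with array weights (adjusted p = 0.0612), equal 75th percentiles (0.104) and the replicate block (0.0936). It was also lost without NaCl replicate 1, 2 or 4 or caerulein replicate 1, 5 or 6 (adjusted p from 0.0694 to 0.1).

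Of 24 G proteins and effectors through which the P2Y and adenosine receptors signal, 9 were lower (37.5%) and 5 higher (20.8%), or 19 and 3 once the scaling genes were set to an equal mean. Gna14, a Gq-family subunit, fell 3.31-fold (-1.73, SE 0.14, limma adjusted p = 6.9e-07), while Gnaq and Gna11, other subunits of that family, had differences of -0.022 and 0.13 and did not pass (limma adjusted p = 0.867 and 0.164). Both passed as lower with a repeated quantile normalisation (-0.29 and -0.18) and under the scaling-gene setting (-0.80 and -0.65). Gna13, another G protein alpha subunit gene, rose 3.6-fold (1.85, SE 0.12, limma adjusted p = 6.5e-08), and the inhibitory subunit gene Gnai3 rose 3.03-fold (1.60, SE 0.076, limma adjusted p = 4.6e-09). Of 9 inflammasome genes, 3 were higher (33.3%) and 0 lower. Txnip, a redox-regulated protein that can bind NLRP3, rose 3.11-fold (1.64, SE 0.25, limma adjusted p = 2.1e-04), and Nek7, a kinase that binds NLRP3, rose 2.73-fold (1.45, SE 0.098, limma adjusted p = 1.2e-07). Casp4, the inflammatory caspase for cytosolic endotoxin, had a difference of 0.35 (limma adjusted p = 0.0084), but -0.43 under the scaling-gene setting, where 2 genes of the list were higher and 6 lower. Without NaCl replicate 3 or caerulein replicate 6, 1 gene of the list was lower. Nlrp3 itself and Casp1 had differences of -0.088 and 0.017 and did not pass (limma adjusted p = 0.336 and 0.863), nor did Il1b at 0.57 (limma adjusted p = 0.0608). Nlrp3 and Casp1 passed as lower under the scaling-gene setting (-0.86 and -0.76), where Il1b was at -0.20. Il1b passed as higher by cyclic loess (adjusted p = 0.0241), with a repeated quantile normalisation (0.0301) and without caerulein replicate 3 (0.00788).

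**Figure D4:**
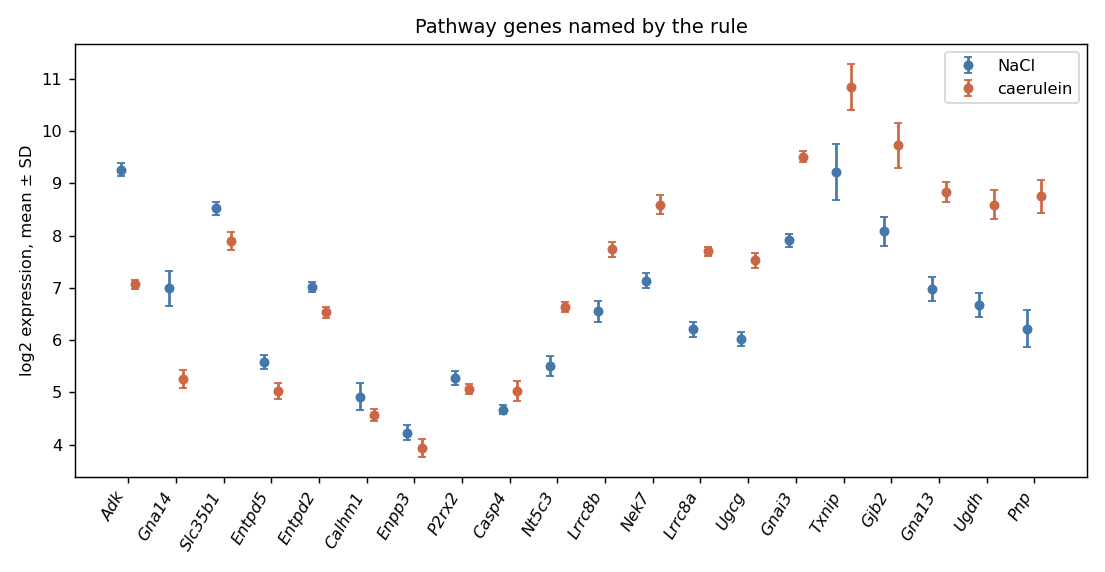
Mean log2 expression (y axis) ± SD of the 20 pathway genes named by the rule, ordered by their difference, in NaCl (blue, n = 5) and caerulein (orange, n = 6). Adk and Gna14 at the left fell most, and Pnp and Ugdh at the right rose most.

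Markers of cell types in the pancreas were read in the same fit, against the 16.4% higher and 27.8% lower of all probe sets. Of 12 macrophage and monocyte markers, 7 were higher (58.3%) and 0 lower, and their mean log2 expression per array ran from 5.73 to 5.88 in NaCl and from 6.34 to 7.19 in caerulein. Shares closer to those of all probe sets were found for 9 endothelial markers, of which 2 were higher and 2 lower (22.2% each, 5.99 to 6.08 in NaCl and 5.99 to 6.14 in caerulein). Of 6 platelet markers 1 was higher and 4 lower (66.7% lower, 5.70 to 5.96 against 5.55 to 5.75), and of 8 smooth muscle and pericyte markers 2 were higher (25%) and 1 lower (12.5%, 6.08 to 6.24 against 6.07 to 6.39). Of 12 acinar markers 4 were lower (33.3%) and 0 higher, and of 6 duct markers 3 were higher (50%) and 1 lower (6.06 to 6.22 against 7.19 to 7.40). Of 8 stellate cell and fibroblast markers 3 were higher (37.5%) and 2 lower (25%). Of 9 neutrophil markers 1 was higher and 1 lower (11.1% each), and of 7 lymphocyte markers 5 were lower (71.4%, 5.22 to 5.37 against 4.87 to 5.19). The marker counts are for the arrays as deposited and are not given under the other scalings. No marker can be called absent on these arrays, and the part of any cell type in the differences of P2ry14, Entpd1, P2rx1 and P2rx4 was not tested.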

How the data were processed

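Total RNA from 11 pancreas samples was labelled with biotin and measured on Affymetrix arrays. The authors deposited log2 expression values for 35556 probe sets, made with RMA and the R packages oligo and limma per the submitters' processing notes; the sources used here give neither versions nor a genome build. The sample titles gave group and replicate number. The series text counts 4 control mice and the titles name 5 NaCl samples, so whether each sample was a separate animal is not settled. The p-values reflect only how much these samples vary, which may be technical.

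A platform annotation gave 21789 probe sets 1 symbol, 1621 several and 12146 none; all 8 members matched RefSeq (GRCm38.p6) by Entrez identifier. Each gene was represented by its brightest single-symbol probe set. Groups were compared with lmFit and eBayes of limma 3.58.1 (R 4.3.3; two-sided, Benjamini-Hochberg over all probe sets, threshold 0.05), after a test on simulated data. Members and lists were chosen with earlier results of these data known. Named were all members, from each list the 3 largest changes past the threshold and the largest against the list's majority, the 3 most similar genes (predicted genes left out) for the largest rise and fall, and the 2 nearest genes on each side of P2ry14 and of the P2rx4 and P2rx7 pair (1 is not reported here); other list genes with values were named after these were seen. RMA compresses changes at low and high levels, and precision is limited by how many arrays there are. Alternatives were array weights, a trended robust variance prior, 4 scalings, leaving out dim probe sets or single arrays, a replicate block, and averaging a gene's probe sets.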

Additional observations from a re-analysis of the deposited data

Results flagged for a closer look

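In 4 of the 82 groups of arrays examined (41 genes, each in NaCl and caerulein), 1 array stood far from the others of its group; chance alone marks about 1 in 20 such groups. P2ry1 in NaCl replicate 5 was 5.07, against 5.36 to 5.48 on the other NaCl arrays, and without that array the P2ry1 difference was -0.14. P2rx7 in caerulein replicate 2 was 5.26, against 5.49 to 5.63 on the other caerulein arrays, and without it the difference was -0.11. Lrrc8a in NaCl replicate 2 was 6.45, against 6.10 to 6.18. Lrrc8b in caerulein replicate 4 was 7.48, against 7.72 to 7.86. Neither array brought the groups of Lrrc8a or Lrrc8b into overlap.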

How the results depend on the processing

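Of 158 values of the members' differences under the alternatives, 143 moved by less than 1 SD. Some of these could not move. The variance prior, averaging a gene's probe sets and leaving out dim probe sets leave a member's difference as it was. The other 15 all came from scalings: every member under the scaling-gene setting, and some under cyclic loess and a second quantile normalisation. Leaving out single arrays kept 3 members lower and 1 higher without overlap, the members' median between -0.17 and -0.07 and the called probe sets between 14148 and 14993. The members' median was 0.073 after cyclic loess, 0.023 after a second quantile normalisation, -0.40 without the dimmer 50 percent of probe sets (P2ry2 and Nt5e left the fit) and, under an equal mean for the scaling genes, -0.89, where 5 members were lower without overlap (P2ry1 and P2rx7 joined) and 32673 probe sets were called instead of 15713.

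With an equal mean of the scaling genes, the number higher and lower was 3 and 19 for G proteins and effectors, 2 and 15 for adenosine metabolism, and 3 and 8 for release channels; the number lower was 10 for UDP-sugar genes, 6 for inflammasome genes, 11 for other receptors and 12 for other enzymes, and Casp4 (-0.43), Ift81 (-0.44) and Atp2a2 (-0.0093) changed sign. With equal 75th percentiles the number lower was 7 for adenosine metabolism, 2 for inflammasome genes, 2 for other receptors and 9 for other enzymes. Cyclic loess gave 2 lower for adenosine metabolism, 0 for other receptors, and 3 lower and 1 higher for other enzymes. A second quantile normalisation gave 0 lower for other receptors and 1 higher for other enzymes. Without the dimmer 50 percent, 1 inflammasome gene and 0 other receptors were lower and 1 other enzyme higher. The cause of these changes was not tested. Without single arrays, the number lower was 0 to 1 for inflammasome genes, 0 to 2 for other receptors and 4 to 8 for other enzymes, and 0 to 1 other enzymes were higher. Of the called probe sets 62.9% were lower as deposited, against 46.4% after cyclic loess, 56.3% after a second quantile normalisation, 72.1% at equal 75th percentiles and 95.1% under the scaling-gene setting.

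Arrays with the same replicate number did not deviate together (correlations -0.0517 to 0.0597), and 2 of 5 NaCl arrays were closest to their own number. The replicate block covered the 5 shared numbers and so also left out caerulein replicate 6. With it 0 other receptors and 1 inflammasome gene were lower, the same counts as without caerulein replicate 6 alone, and 13361 probe sets were called, against 14358 without that array and without the block. No detection calls were used, so dim probe sets such as those of Nt5e and P2ry2 may lie at background.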

Other observations

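In the RefSeq gene table, with genes ordered by their midpoints, P2ry14 has Gpr171 and Clrn1 on one side and Med12l on the other. Whether any of these genes overlaps P2ry14 was not examined. Med12l, a Mediator subunit gene, fell by 0.40 on the log2 scale (SE 0.072, limma adjusted p = 6.5e-04), with no overlap of the groups. Gpr171, an orphan receptor gene, had a difference of -0.43 (SE 0.11, limma adjusted p = 0.00618), a call lost after cyclic loess (adjusted p = 0.0615). Clrn1 had a difference of -0.23 (SE 0.064, limma adjusted p = 0.0114), a call lost after a second quantile normalisation (adjusted p = 0.253), after cyclic loess (0.368) and under the replicate block (0.0531). All 3 differences were smaller than the -2.73 of P2ry14.

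Next to the P2rx4 and P2rx7 pair lie Ift81 and Atp2a2 on one side and Camkk2 and Anapc5 on the other. Atp2a2, the calcium pump of the endoplasmic reticulum, rose 1.7-fold (0.77, SE 0.083, limma adjusted p = 9.2e-06), and its difference was -0.0093 with an equal mean of the scaling genes. Ift81, an intraflagellar transport gene, had a difference of 0.34 (SE 0.094, limma adjusted p = 0.0117) and of -0.44 under that scaling. Camkk2, a calmodulin-dependent kinase gene, and Anapc5, a subunit of the anaphase-promoting complex, had differences of -0.11 and 0.049 and did not pass (limma adjusted p = 0.188 and 0.636). Camkk2 passed as lower with equal 75th percentiles (-0.17, adjusted p = 0.0383), and Anapc5 passed as lower after a second quantile normalisation (-0.23, adjusted p = 0.0167). Both passed as lower with an equal mean of the scaling genes (-0.88 and -0.73, adjusted p = 2.5e-07 and 2.1e-06).

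NaCl replicate 5 was the lowest NaCl array for 5 of the 8 nucleotide receptor and ectonucleotidase genes, whereas it was the lowest for 18.6% of all probe sets. Caerulein replicate 3 was the lowest caerulein array for 4 of the 8, against 16.3% of all probe sets. These counts were looked at after the values had been seen and were not tested.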
